A study of Mus musculus with 24 samples.

Results

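Regulatory T cell genes were followed across 4 states of mouse CD4 T cells and 2 genotypes. The 8 members were Foxp3, Ikzf2, Ikzf4, Gpr83, Nrp1, Itgae, Izumo1r (Folr4 in the table) and Klrg1, and every probe whose symbol in the deposited table named one of them was taken. The table listed 5 members under these symbols and 3 under an older symbol of Ikzf2, Ikzf4 or Nrp1. The array covered 17871 genes, and 10417 of them had a probe that passed the detection filter (detected on 1 or more of 24 arrays, at a detection p no higher than 0.02). Of the 8 members, 7 passed it, with 15 of their 18 probes, and Ikzf4 did not.

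The study asked what BAF180, the Pbrm1 product and a subunit of the PBAF chromatin remodelling complex, does in T helper cells. RNA from 8 groups of 3 samples (replicates A, B and C) was hybridised to single-colour Illumina bead arrays. Naive CD4 T cells were isolated with a kit for CD4+ CD62+ T cells from spleen and lymph nodes of mice 4 to 6 weeks old. The stated purity was 95%. Resting Naïve cells were taken as isolated, and stimulated Naïve cells had 24 h of anti-CD3 (1 µg/ml) and anti-CD28 (2 µg/ml), a stimulation that only the sample labels give.

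Resting Th2 cells had been cultured with the same 2 antibodies, IL-4 at 10 ng/ml and anti-IFNγ at 10 µg/ml, with IL-2 at 100 U/ml from 24 h and expansion from day 3. Stimulated Th2 cells then had 1.5 h of PMA (50 ng/ml) and ionomycin (500 ng/ml). BAF180-deficient cells lacked Pbrm1 through a floxed allele and Cre driven by CD4, so that in the mouse the deletion covered every lineage that passes through CD4 expression, regulatory T cells included. The labels give the strain as Balb/c, whereas the methods describe a mixed background of B6 and another strain crossed to the Cre mice. The labels do not say that replicates came from separate animals (the paper speaks of 3 pairs of mice), so the p-values measure the spread between these samples, and the small number of arrays limits the precision.

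Regulatory T cells are CD4 T cells that restrain immune responses, and their identity rests on the transcription factor Foxp3. Helios (Ikzf2) and Eos (Ikzf4) are Ikaros family zinc finger factors found in many of these cells, and several surface proteins, neuropilin 1 and the αE integrin among them, are used to tell them apart. Foxp3-positive cells also occur among isolated naive CD4 T cells, and none of these genes is expressed in regulatory T cells alone.

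Pbrm1 was read first, as the check of the genotype labels. Its brightest of 3 probes gave normalised log2 signals of 8.20, 8.72 and 8.69 in resting Naïve WT cells and 7.88, 7.28 and 7.41 in BAF180-deficient cells. In stimulated Naïve cells they were 8.29, 8.76 and 8.67 against 6.36, 7.06 and 7.41. In resting Th2 cells they were 9.06, 9.06 and 8.88 against 7.16, 7.23 and 7.02, and in stimulated Th2 cells 8.52, 8.14 and 8.21 against 6.56, 6.90 and 7.15. The genotypes did not overlap in any state, with log2 differences of -1.01, -1.63, -1.86 and -1.42 in this order and limma adjusted p-values of 0.121, 0.00746, 0.00101 and 0.0141. Each met 4 criteria with the thresholds of the study's methods, a Z-ratio beyond 1.5, an FDR under 0.3, a p under 0.05 and a positive mean signal. Here these were computed from the limma fit. The study took them from Z-scores and reports more changed genes, so a gene uncalled here may be called there. Whether the probed bases lie in the deleted stretch of the transcript was not determined here. The brightest probe was detected on all 12 BAF180-deficient arrays. The other 2 probes were dimmer and were detected on 0 and 2 of those 12 arrays, against 8 and 10 of the 12 WT arrays.

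The cell states were checked on their markers. The 6 detected genes of a naive list of 7, led by Klf2 in resting Naïve arrays and by Il7r in the others, summed to a signal of 3133 to 4192 in resting Naïve arrays and 187 to 2207 in the other 18 arrays, and S1pr1 was detected on none. The 7 genes of a Th2 list summed to 316 to 490 in resting Naïve arrays and 860 to 21257 elsewhere. Stimulated Naïve arrays had the lowest naive sums of all, 187 to 296, below the 1492 to 2207 of resting Th2 arrays, and their Th2 sums, 860 to 2888, overlapped the 1259 to 2505 of resting Th2 arrays. Mean log2 signals of Il4 in WT and BAF180-deficient cells were 6.93 and 6.71 in resting Naïve cells, 9.64 and 9.80 after their stimulation, 9.43 and 10.05 after Th2 culture, and 14.02 and 14.14 after stimulation of those cells. By these values resting Naïve and stimulated Th2 cells stood apart, while Il4 and the Th2 list did not separate stimulated Naïve from resting Th2 cells. The 7 CD4 T cell markers, led by Cd3g in resting and by Cd3d in stimulated cells, were detected on all 24 arrays, while Cd8a was detected on none and Cd8b1 on all.

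Differences between states were called at a limma adjusted p under 0.05, and a member was counted where any of its probes was called. On stimulation of Naïve cells, 7 of the 8 members had a lower probe in WT cells, where 20% of all probes tested were lower and 43.6% were called in either direction. In BAF180-deficient cells 6 were lower, against 19.3% lower and 41.6% called of all probes. From resting Naïve to resting Th2 cells, 7 were lower in each genotype, against 16% lower and 34.4% called in WT cells and 15.9% lower and 34.7% called in BAF180-deficient cells. A probe high in resting Naïve cells alone could pass the detection filter only through them, and then had to be lower in the other states. By its brightest probe each of the 7 was also detected on some of the 18 other arrays, Klrg1 on only 4 of them. These counts are a description of the members and are not evidence for them. These counts take any probe of a member, while the shares are per probe. By the brightest probe alone 6 and 5 members were lower on stimulation of Naïve WT and BAF180-deficient cells, and 7 and 6 in resting Th2 cells.

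On stimulation of Th2 cells, 1 member was higher and 0 lower in WT cells, against 14.3% lower and 27.3% called of all probes, with 3 members and 35.7% of all probes at an unadjusted limma p under 0.05. In BAF180-deficient cells 1 was higher and 1 lower, against 13.8% lower and 25.8% called. The comparisons with resting Naïve cells share those arrays, as do those with resting Th2 cells, so their results are not independent of each other.

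Between genotypes, called by the 4 criteria, 1 member was higher in BAF180-deficient resting Naïve cells, where 0.681% of all probes tested were called. At an unadjusted p under 0.05 stood 2 members there, Ikzf2 and Klrg1, and 6.83% of all probes. In the stimulated Naïve and both Th2 states, resting first, limma called 0 members, against 0.112%, 0.0842% and 0.0913% of all probes, with 0, 1 and 1 members at an unadjusted p under 0.05, against 2.25%, 3.43% and 2.79% of all probes. By the brightest probe of each member, the arrays of the genotypes did not overlap for 2 members in resting Naïve cells, 1 in stimulated Naïve cells, 1 in resting Th2 cells and 0 in stimulated Th2 cells. Of all probes, 7.99%, 6.46%, 10.1% and 7.31% did not overlap in these states. An exact permutation test of 3 against 3 arrays cannot go below 0.1, two-sided.

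A fit that blocks on the same-letter WT and BAF180-deficient arrays of each state, chosen after the data were seen, called 5 members in resting Naïve cells, 0 in stimulated Naïve cells, 1 in resting Th2 cells and 0 in stimulated Th2 cells. It called 4.16%, 0.225%, 0.955% and 0.309% of all probes in the same order. In resting Naïve cells 4 of the 5 were higher (Foxp3, Ikzf2, Itgae and Klrg1) and Izumo1r was lower by 1 of its probes. No member passed any of the 3 tests of a change of the genotype effect between states, with limma adjusted p-values of 1.00 and 0 members at an unadjusted p under 0.05. Over all probes these tests called 1 for Naïve stimulation, 0 for Th2 stimulation and 1 for Th2 differentiation, with 329, 257 and 387 at an unadjusted p under 0.05.

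**Figure D1:**
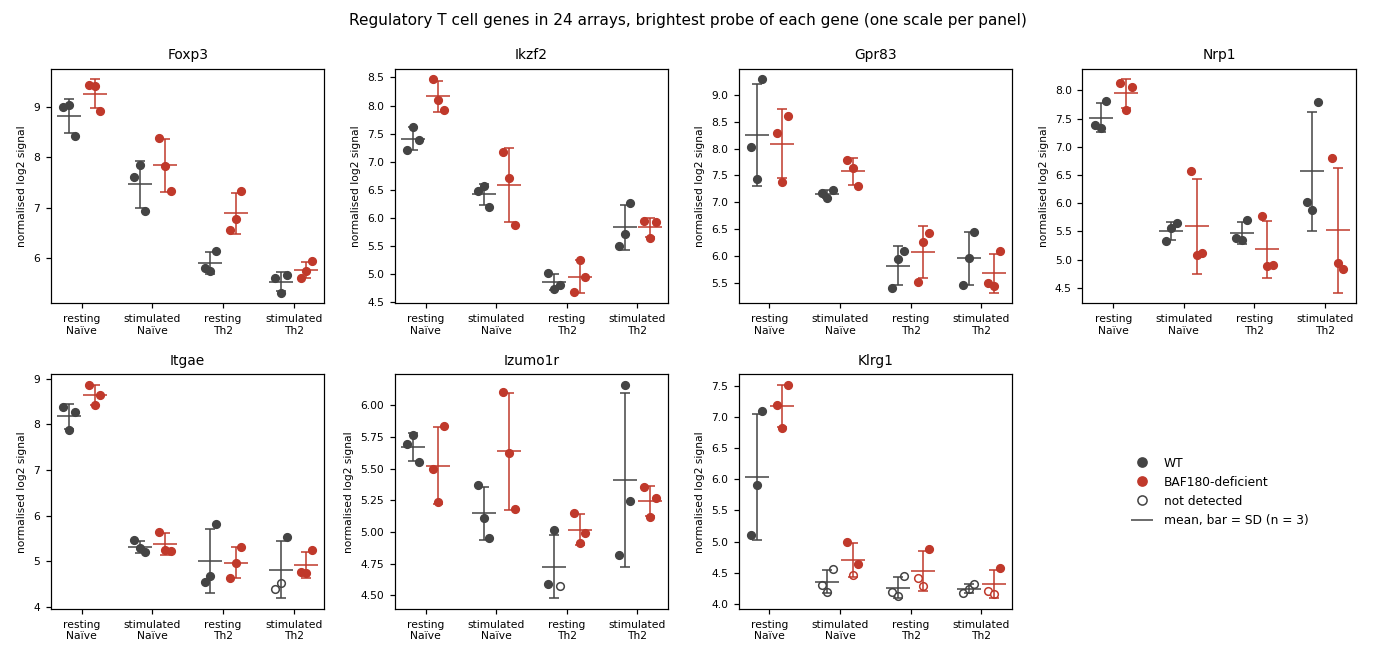
Normalised log2 signal of the brightest probe of the 7 detected members on each of 24 arrays, by cell state and genotype, with lines at the group means, error bars of the SD (n = 3) and open points where the probe was not detected. Each panel has its own scale, and 6 of the 7 panels have their highest group mean in resting Naïve cells of both genotypes, while the Izumo1r probe runs from 4.58 to 6.16.

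Foxp3 encodes the transcription factor that defines regulatory T cells. Its brightest probe was detected on all 24 arrays, with log2 signals of 9.0, 9.05 and 8.43 in resting Naïve WT cells and 9.44, 9.43 and 8.93 in BAF180-deficient cells. In stimulated Naïve cells they were 7.61, 7.84 and 6.94 against 8.38, 7.82 and 7.33. The genotypes overlapped in both Naïve states, with the C array the lowest of its group each time.

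In resting Th2 cells Foxp3 read 5.79, 5.75 and 6.14 in WT arrays and 6.55, 6.78 and 7.34 in BAF180-deficient arrays. In stimulated Th2 cells it read 5.60, 5.31 and 5.66 against 5.61, 5.74 and 5.93. Every BAF180-deficient array lay above every WT array in resting Th2 cells, and in stimulated Th2 cells the genotypes overlapped. Over the 4 states the BAF180-deficient array was the higher in 11 of 12 pairs of the same letter.

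Foxp3 fell by 1.36 ± 0.27 (log2, SE) on stimulation of Naïve WT cells (2.56-fold, limma adjusted p 0.000281) and fell by 1.42 in BAF180-deficient cells (2.68-fold, 0.000181). By the 4 criteria the fall in WT cells lost its call, at a Z-ratio of -1.44. Going from resting Naïve to resting Th2 cells, Foxp3 fell by 2.93 in WT cells (7.63-fold, adjusted p 3.7e-08) and fell by 2.38 in BAF180-deficient cells (5.20-fold, 6.75e-07). In bulk samples, fewer cells of a type and less RNA per cell cannot be told apart. In WT cells the order of levels put both Naïve states above both Th2 states, each time resting above stimulated, with no overlap between neighbours. The order was the same in BAF180-deficient cells, where stimulated Naïve and resting Th2 arrays overlapped.

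The Foxp3 genotype difference in resting Th2 cells was 1.00 ± 0.27 (1.99-fold, limma p 0.00123), and at an adjusted p of 0.465 it missed the FDR criterion. The exact permutation p was 0.1, the smallest possible. Under the blocks within each state the adjusted p was 0.0305, and over all alternatives it ran from 0.0305 to 1.00. The difference in resting Naïve cells was 0.44 (adjusted p 0.862), higher in 3 of 3 pairs of the same letter, and those blocks called it at an adjusted p of 0.281. It was 0.38 in stimulated Naïve cells (adjusted p 1.00) and 0.24 in stimulated Th2 cells (1.00). With single arrays left out the 4 differences ran from 0.77 to 1.17 in resting Th2, 0.25 to 0.61 in resting Naïve, 0.11 to 0.64 in stimulated Naïve and 0.13 to 0.31 in stimulated Th2 cells. Stimulation of Th2 cells took Foxp3 down by a called -1.13 in BAF180-deficient cells (2.19-fold, adjusted p 0.00302), and the difference in WT cells was -0.37 (0.367). The test of that change between genotypes gave -0.76 ± 0.38 (p 0.0566, adjusted p 1.00), so the genotypes were not shown to differ in it. The paper, by its own Z-score analysis of these arrays, names Foxp3 among genes apparently repressed by BAF180 in Th2 and in Naïve cells.

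The other 2 Foxp3 probes were dimmer. The probe starting at transcript base 3584, which was detected on 20 arrays, read 4.76, 4.64 (undetected) and 5.30 in resting Th2 WT cells and 4.93, 5.56 and 6.06 in BAF180-deficient cells. The probe at base 1348, detected on 15 arrays, read 4.33, 4.29 and 4.81 against 4.54, 4.49 and 5.05, with A and B of both genotypes undetected. By the probe at base 3584 the mean of the BAF180-deficient arrays was higher by 0.61, and by the other a difference could not be resolved. In these cells both overlapped between genotypes, whereas the brightest probe, at base 3663, did not. In stimulated Naïve cells the probe at base 3584 did not overlap, at 5.76, 5.79 and 5.55 in WT and 6.24, 6.32 and 6.05 in BAF180-deficient arrays. Neither of the 2 dimmer probes was called between genotypes. Both were called lower in stimulated Naïve and in resting Th2 cells than in resting Naïve cells.

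**Figure D2:**
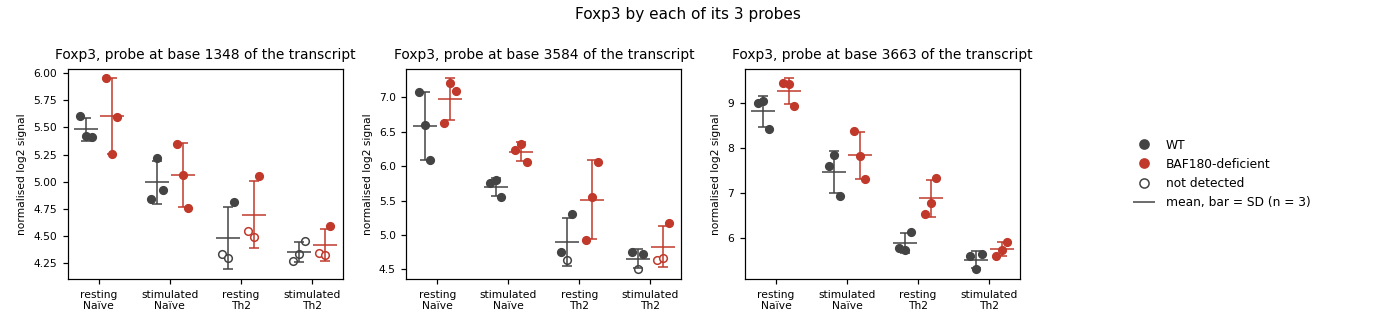
Normalised log2 signal of the 3 Foxp3 probes on 24 arrays, by cell state and genotype, with lines at the group means, error bars of the SD (n = 3) and open points where a probe was not detected. In resting Th2 cells the genotypes separate by the brightest probe (highest WT array 6.14, lowest BAF180-deficient array 6.55) and overlap by the other 2.

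Ikzf2 encodes Helios, a zinc finger factor of the Ikaros family that many regulatory T cells carry. Its single probe was detected on all 24 arrays and read 7.21, 7.62 and 7.38 in resting Naïve WT cells and 8.47, 8.09 and 7.93 in BAF180-deficient cells. Stimulated Naïve cells read 6.49, 6.57 and 6.20 against 7.18, 6.71 and 5.88. The genotypes did not overlap in resting Naïve cells and overlapped after stimulation.

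Ikzf2 in resting Th2 cells read 5.02, 4.74 and 4.81 in WT arrays and 4.68, 5.25 and 4.94 in BAF180-deficient arrays. In stimulated Th2 cells it read 5.51, 5.72 and 6.27 against 5.94, 5.64 and 5.92. Stimulated Th2 arrays all lay above resting ones, and the genotypes overlapped in both states. In both genotypes the order was resting Naïve, stimulated Naïve, stimulated Th2 and resting Th2, and of the neighbours only stimulated Naïve and stimulated Th2 overlapped.

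Ikzf2 was the 1 member called higher on stimulation of Th2 cells, up by 0.97 ± 0.25 in WT cells (1.97-fold, limma adjusted p 0.00591) and 0.88 in BAF180-deficient cells (1.84-fold, 0.0131). It fell by 0.99 on stimulation of Naïve WT cells (adjusted p 0.0032) and fell by 1.57 in BAF180-deficient cells (3.82e-05). Between resting Naïve and resting Th2 cells it fell by 2.55 in WT cells (5.85-fold, 1.35e-07) and fell by 3.20 in BAF180-deficient cells (9.22-fold, 5.32e-09). The genotype difference in resting Naïve cells was 0.76 (1.69-fold, p 0.00731), which at an adjusted p of 0.486 was not called and ran from 0.60 to 0.87 with single arrays left out. The blocks within each state called it at an adjusted p of 0.217, in a range over all alternatives of 0.217 to 1.00. The rise on Th2 stimulation lost its call under 3 alternatives in BAF180-deficient cells (Z-score normalisation, the 4 criteria and without resting array A, adjusted p up to 0.0734) and under 1 in WT cells (the 4 criteria). The fall on stimulation of Naïve WT cells lost it under 2 (median centring and the 4 criteria, adjusted p up to 0.124).

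Ikzf4 encodes Eos, another Ikaros family factor, which acts as a partner of Foxp3. Its probe was detected on none of 24 arrays, with intensities of 34.8 to 46.2 and a lowest detection p of 0.0689, so no level can be given. A further probe, listed as A630026H08Rik and tied to Ikzf4 only through a synonym, was detected on all 24 arrays and was not counted as a member. It read 5.18, 5.30 and 5.15 in resting Naïve WT cells and 6.18, 6.11 and 5.70 in resting Th2 WT cells, a called difference of 0.78 (adjusted p 0.0215). What that probe measures was not determined.

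Of the other Ikaros family genes, Ikzf1 and Ikzf5 passed the detection filter, and Ikzf3 had no probe on the array. Ikzf1 fell by 0.55 on stimulation of Naïve WT cells and fell by 0.64 in BAF180-deficient cells, and fell by 0.58 from resting Naïve to resting Th2 BAF180-deficient cells. Ikzf5 fell by 0.49 in that last comparison in WT cells. Of all probes, WT cells first, 43.6% and 41.6% were called on stimulation of Naïve cells and 34.4% and 34.7% from resting Naïve to resting Th2 cells. The tests of a change between genotypes called neither gene (adjusted p 1.00). Neither gene was called between genotypes by limma, with 0 at an unadjusted p under 0.05 in each of the 4 states. Of all probes 6.83% and 2.25% were under it in resting and stimulated Naïve cells, and 3.43% and 2.79% in resting and stimulated Th2 cells.

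Gpr83 encodes a G protein-coupled receptor of regulatory T cells. Its single probe was detected on all 24 arrays and read 8.03, 7.44 and 9.29 in resting Naïve WT cells and 8.29, 7.37 and 8.60 in BAF180-deficient cells. Stimulated Naïve cells read 7.17, 7.07 and 7.22 against 7.78, 7.64 and 7.30. The resting arrays spread widely, with C the highest and B the lowest in both genotypes, and in stimulated cells the genotypes did not overlap.

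Gpr83 in resting Th2 cells read 5.41, 5.95 and 6.10 against 5.52, 6.25 and 6.43, and in stimulated Th2 cells 5.47, 5.96 and 6.44 against 5.50, 5.45 and 6.09. The genotypes overlapped in both Th2 states, and every Th2 array lay below every Naïve array. Neighbours in the order of levels overlapped between the 2 Th2 states in both genotypes, and between the 2 Naïve states in BAF180-deficient cells alone.

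Gpr83 fell by 2.43 ± 0.38 from resting Naïve to resting Th2 WT cells (5.39-fold, limma adjusted p 4.5e-05) and fell by 2.02 in BAF180-deficient cells (4.05-fold, 0.000329). On stimulation of Naïve cells it fell by 1.10 in WT cells (adjusted p 0.0238), while the difference in BAF180-deficient cells was -0.51 (0.305). The latter ran from -0.87 to -0.26 with single arrays left out. The test between genotypes gave 0.58 ± 0.54 (adjusted p 1.00). The WT call was lost under 7 alternatives, with adjusted p-values up to 0.27: Z-score normalisation (-0.79), median centring (-0.52), no detection filter, the 4 criteria, only the arrays compared, and without resting array C (-0.58) or stimulated array B. The genotype difference in stimulated Naïve cells was 0.42 (p 0.282, adjusted p 1.00), so it was not called although the arrays did not overlap.

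Nrp1 encodes neuropilin 1, a receptor for semaphorins and VEGF that marks many regulatory T cells formed in the thymus. Its brightest probe read 7.39, 7.34 and 7.81 in resting Naïve WT cells and 8.13, 7.66 and 8.05 in BAF180-deficient cells. Stimulated Naïve cells read 5.33, 5.55 and 5.65 against 6.57, 5.08 and 5.12. Resting arrays all lay above stimulated ones, and the BAF180-deficient A array stood above the others of its stimulated group.

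Nrp1 in resting Th2 cells read 5.38, 5.34 and 5.70 against 5.77, 4.88 and 4.90, and in stimulated Th2 cells 6.02, 5.89 and 7.79 against 6.79, 4.94 and 4.83. The stimulated Th2 arrays had the widest spread, with WT C and BAF180-deficient A high, and the genotypes overlapped. The genotype difference there was -1.04 ± 0.49 (limma p 0.0446, adjusted p 1.00), and it ran from -1.68 to -0.43 with single arrays left out.

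Nrp1 fell by 2.00 on stimulation of Naïve WT cells (adjusted p 0.00212) and fell by 2.36 in BAF180-deficient cells (0.000509). Between resting Naïve and resting Th2 cells it fell by 2.03 in WT cells (0.00276) and fell by 2.76 in BAF180-deficient cells (0.000172). Stimulation of Th2 WT cells gave an uncalled 1.09 (0.112) with no overlap of the arrays. This difference ran from 0.48 (without stimulated array C) to 1.43 with single arrays left out. In WT cells the order was resting Naïve, stimulated Th2, stimulated Naïve and resting Th2, and of the neighbours only stimulated Th2 and stimulated Naïve did not overlap. In BAF180-deficient cells the arrays of the 3 states below resting Naïve overlapped. The second Nrp1 probe shared 44 of its 50 bases with the first and correlated with it at r 0.986 over 24 arrays, so it is no independent reading.

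Izumo1r encodes folate receptor 4, a surface protein of regulatory and of anergic T cells that is better known as an egg receptor. Its brightest of 3 probes, detected on 23 arrays, read 5.70, 5.76 and 5.55 in resting Naïve WT cells and 5.50, 5.24 and 5.84 in BAF180-deficient cells. Stimulated Naïve cells read 5.37, 5.11 and 4.95 against 6.11, 5.62 and 5.18. Th2 cells read 4.59, 5.01 and 4.58 (undetected) against 5.15, 4.91 and 5.0 at rest, and 4.82, 6.16 and 5.25 against 5.35, 5.12 and 5.27 after stimulation. This probe read between 4.58 and 6.16 over all 24 arrays, and neighbours in the order of its 4 levels overlapped in both genotypes.

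The second Izumo1r probe, detected on 18 arrays, read 6.48, 6.90 and 5.99 in resting Naïve WT cells and 6.47, 6.50 and 5.76 in BAF180-deficient cells. Stimulated Naïve cells read 5.04, 4.75 and 4.56 (undetected) against 4.80, 4.88 and 4.73. Resting and stimulated arrays did not overlap by this probe. It fell by 1.67 ± 0.23 in WT cells (limma adjusted p 6.3e-06) and fell by 1.44 in BAF180-deficient cells (4.04e-05).

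By the brightest Izumo1r probe the stimulation differences were -0.52 in WT cells (adjusted p 0.111) and 0.11 in BAF180-deficient cells (0.773), so the probes of the gene disagreed in size and, in BAF180-deficient cells, in sign. The WT difference was called with only the arrays compared (adjusted p 0.0374) and as the mean over probes (1.5e-05). From resting Naïve to resting Th2 WT cells the brightest probe fell by 0.94 (adjusted p 0.00751) and the second fell by 1.66 (1.29e-05). In BAF180-deficient cells the brightest gave -0.51 (0.14, and 0.000402 as the mean over probes, which was called) and the second fell by 1.37 (0.000113), and the test of a change between genotypes for the brightest gave 0.44 (adjusted p 1.00). On stimulation of Th2 cells the brightest probe gave 0.68 ± 0.26 in WT cells (p 0.0159, adjusted p 0.0566), uncalled and with overlap, and 0.23 in BAF180-deficient cells (0.617), and the second gave -0.15 and -0.34. The WT difference was called under 5 alternatives: Z-score normalisation, median centring, detection on all arrays of a group, and without stimulated array A or resting array B. With single arrays left out it ran from 0.31 (without stimulated array B) to 0.98. By the 4 criteria the brightest probe's fall from resting Naïve to resting Th2 WT cells lost its call. The third probe shared 38 of 50 bases with the second (r 0.955 over 24 arrays) and was called in the same comparisons as it. Between genotypes no probe was called, and the difference by the third in resting Naïve cells was -0.49 ± 0.25 (adjusted p 0.782). The blocks within each state called that difference, which goes against the higher signal of the other 4 members they called.

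Itgae encodes the αE integrin chain, which pairs with β7 to bind E-cadherin on epithelium. Its brightest of 6 probes, detected on 22 arrays, read 8.38, 7.87 and 8.27 in resting Naïve WT cells and 8.86, 8.42 and 8.64 in BAF180-deficient cells. Stimulated Naïve cells read 5.46, 5.29 and 5.21 against 5.65, 5.25 and 5.22. The genotypes did not overlap in resting Naïve cells and overlapped after stimulation, and every resting array lay far above the stimulated ones.

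In resting Th2 cells Itgae read 4.55, 4.68 and 5.82 against 4.63, 4.96 and 5.31, and in stimulated Th2 cells 4.39, 4.52 and 5.53 against 4.77, 4.74 and 5.25. WT arrays A and B of stimulated Th2 cells were below detection, and array C was the highest of each Th2 group. The 3 states below resting Naïve overlapped in both genotypes.

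Itgae fell by 2.85 ± 0.30 on stimulation of Naïve WT cells (7.23-fold, limma adjusted p 1.64e-07) and fell by 3.26 in BAF180-deficient cells (9.61-fold, 2.71e-08). Between resting Naïve and resting Th2 cells it fell by 3.16 in WT cells (7.18e-08) and fell by 3.67 in BAF180-deficient cells (8.56e-09). Resting Th2 arrays were all detected, but several lay close to the lowest detected signal, so the size of these 2 falls rests in part on background. The genotype difference in resting Naïve cells was 0.47 (p 0.135, adjusted p 0.884; 0.31 to 0.58 with single arrays left out), higher in 3 of 3 pairs of the same letter. The blocks within each state called it at an adjusted p of 0.281, in a range over all alternatives of 0.281 to 1.00.

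Of the 6 Itgae probes, 4 formed 2 near-identical pairs, and not all detected the gene. A probe sharing 49 of 50 bases with the brightest was detected on 17 arrays, and the 2 probes outside the pairs were detected on none. The other pair is shown because their sequences differ by a shift of 1 base, while the first was detected on 9 arrays and the second on 4. The first read 6.24, 6.12 and 6.25 in resting Naïve WT cells and 6.09, 6.00 and 6.17 in BAF180-deficient cells. The second read 4.72, 4.44 and 5.39 against 5.02, 4.92 and 5.56, with WT A and B undetected. Capitals mark the 49 bases they share.
First Itgae probe (chr11:72947149-72947198, plus strand, build not stated in the file): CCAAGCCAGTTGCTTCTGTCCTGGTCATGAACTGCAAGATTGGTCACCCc
Second Itgae probe (chr11:72947148-72947197, plus strand): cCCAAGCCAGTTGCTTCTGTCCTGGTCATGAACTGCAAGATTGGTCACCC

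Where a probe was undetected on every array of a group, a fold is given as a bound: the bright group's mean against the dim group's mean of, on each array, the higher of the lowest signal among detected probes and the probe's own. By this bound the first Itgae probe was at least 2.93-fold lower in stimulated than in resting Naïve WT cells (limma adjusted p 6.51e-09). The second was at least 1.45-fold lower on stimulation of BAF180-deficient cells. It was detected on resting Naïve arrays alone and passed the filter only through them, so its fall was fixed and is no evidence. The 4 kept Itgae probes were all lower in these comparisons and differed in size. By the first probe of the shifted pair the genotype difference in resting Naïve cells was -0.12, and by the second it was 0.32, both with overlap. The size by the second rests in part on background, since WT A and B were undetected. By the brightest probe the genotype difference was 0.47 and by its near-identical partner 0.64, both without overlap. None of the 4 was called.

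The bases of 2 further probes are given in lower case, with no stretch singled out: the Izumo1r probe that disagreed with the others of its gene, and the Foxp3 probe detected on the fewest arrays.
Izumo1r brightest probe (chr9:14704966-14705015, minus strand): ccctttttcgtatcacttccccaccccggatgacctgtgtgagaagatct
Foxp3 probe at transcript base 1348 (chrX:7169821-7169870, plus strand): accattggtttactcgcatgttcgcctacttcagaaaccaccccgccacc
The Izumo1r probe above was placed at another position of chromosome 9 in the deposited table than the second probe of the gene, which started at 14636530.

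Klrg1 encodes an inhibitory receptor found on killer cells, on effector T cells and on activated regulatory T cells. Its single probe was detected on 10 of 24 arrays, among them all 6 resting Naïve arrays, where it read 5.11, 5.90 and 7.10 in WT cells and 7.18, 6.82 and 7.50 in BAF180-deficient cells. In stimulated Naïve cells the WT arrays were all undetected, and the BAF180-deficient arrays read 5.0, 4.46 (undetected) and 4.64. Of the 12 Th2 arrays 2 were detected. WT array C reached the range of the BAF180-deficient arrays, so the genotypes overlapped in resting Naïve cells, with A the lowest WT array.

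Klrg1 was the 1 member called between genotypes, at 1.14 ± 0.32 in resting Naïve cells (2.20-fold, limma p 0.00176, adjusted p 0.28), higher in 3 of 3 pairs of the same letter. The blocks within each state gave an adjusted p of 0.0727, and over all alternatives it ran from 0.00141 to 1.00. Leaving out single arrays gave differences of 0.67 (without WT array A) to 1.67 (without WT array C), and the call was lost without WT array A, WT array B, BAF180-deficient array A or BAF180-deficient array C. It was also lost without background correction, under Z-score normalisation, under median centring, without the detection filter, at an adjusted p under 0.05 and with only the arrays compared, so 10 alternatives ended it and 7 kept it. On stimulation of Naïve cells Klrg1 was at least 2.61-fold lower in WT cells (adjusted p 0.000194) and fell by 2.47 in BAF180-deficient cells (2.3e-06), and the test between genotypes gave -0.79 ± 0.45 (p 0.0908, adjusted p 1.00). From resting Naïve to resting Th2 cells it was at least 2.70-fold lower in WT cells (0.000184) and fell by 2.64 in BAF180-deficient cells (1.67e-06). Array B of stimulated Naïve and arrays A and B of resting Th2 BAF180-deficient cells were undetected, so the size of these 2 falls rests on background signal. The arrays of the other 3 states overlapped in both genotypes.

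**Figure D3:**
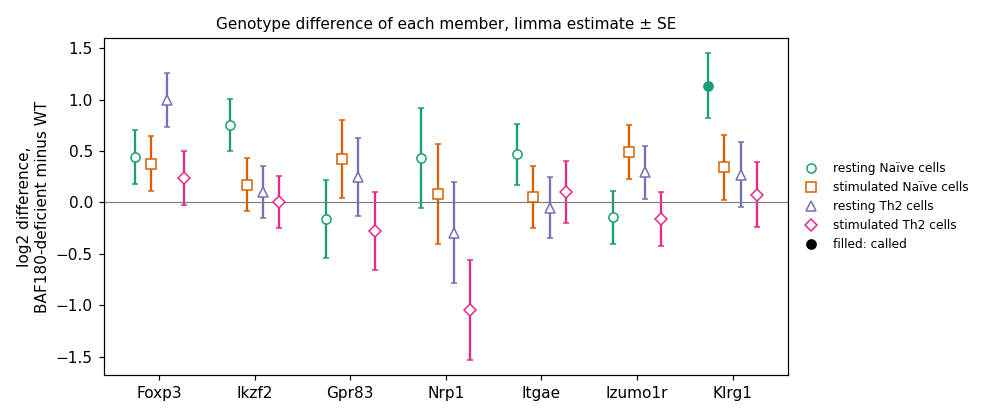
Limma log2 difference, BAF180-deficient minus WT, of each detected member in the 4 cell states, with bars of 1 SE and filled points where the 4 criteria were met. Klrg1 in resting Naïve cells (1.14) is the 1 filled point, and Foxp3 in resting Th2 cells stands at 1.00.

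In each pair of the 7 detected members the correlation was lower within states than across them. This can happen for any genes that differ between states. Over 24 arrays, which share 4 states and 2 genotypes, Foxp3 correlated with Ikzf2 at r 0.836 and with Gpr83 at 0.861, and Itgae with Klrg1 at 0.917. After the mean of each state was taken out, the same 3 values were 0.567, 0.0590 and 0.403. Over all pairs these values ran from -0.0401 (Foxp3 with Nrp1) to 0.567 (Foxp3 with Ikzf2). By sign alone, the genotype difference of the brightest probe was positive for 5 of the 7 detected members in resting Naïve cells, 7 after their stimulation, 5 in resting Th2 cells and 4 after theirs.

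The genes most like each member over 24 arrays were ranked by Pearson r, which describes profiles over the same states. For Foxp3 they were Atp1b1 (0.950), Iscu (0.946) and Snn (0.943), and after the state means were taken out Tuft1 (0.860), Syp (0.775) and Tprn (0.756). For Ikzf2 they were Lrig1 (0.937) and Tmem131l (0.927), and for Gpr83 Cd86 (0.933) and Abcc5 (0.927). Members were left out of this ranking, so none could appear in it. The genes nearest to Foxp3 with and without the state means differed. For Nrp1 the nearest were Jun (0.872) and Cd1d1 (0.844), and for Itgae Cyth3, Dtx1 and Sirpa (each 0.975). For Klrg1 they were Psd2 (0.963) and Rubcnl (0.950), and for Izumo1r Pofut1 (0.808).

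Other surface and effector genes of regulatory T cells moved in both directions between states. Of 30 listed, 25 passed the detection filter, Pdcd1 and Gzmb were not detected, and Lrrc32, Tigit and Penk had no probe. On stimulation of Naïve cells 10 rose and 5 fell in WT cells, with a median log2 difference of 0.32 beside 0.01 over all probes, and 8 rose and 4 fell in BAF180-deficient cells (0.47 beside 0.02). On stimulation of Th2 cells 9 rose and 4 fell in each genotype. From resting Naïve to resting Th2 cells 9 rose and 5 fell in WT cells (0.32 beside 0.03), and 11 rose and 6 fell in BAF180-deficient cells (0.44 beside 0.03). Over all probes, WT cells first, 43.6% and 41.6% were called on stimulation of Naïve cells (20% and 19.3% lower) and 27.3% and 25.8% on that of Th2 cells (14.3% and 13.8% lower). From resting Naïve to resting Th2 cells 34.4% and 34.7% were called (16% and 15.9% lower).

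Il2ra, the IL-2 receptor α chain, rose on stimulation of Naïve cells by 3.04 in WT cells and 2.98 in BAF180-deficient cells, and was higher by 2.87 and 3.27 in resting Th2 than in resting Naïve cells. Irf4, a transcription factor induced by antigen receptor signals, rose by 3.12 and 2.74 on stimulation of Naïve cells. Nt5e, the ectoenzyme CD73, fell by 2.86 in WT and fell by 2.45 in BAF180-deficient cells. Ccr6, a chemokine receptor, fell by 2.18 and fell by 2.16 in the same order. Between resting Naïve and resting Th2 cells Cd83 fell by 4.12 and fell by 4.46, and Socs2, a suppressor of cytokine signals, rose by 3.46 and 3.76. In each of these genes both genotypes moved the same way.

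On stimulation of Th2 cells Areg rose by 4.28 in WT cells and 3.77 in BAF180-deficient cells, and Il10 rose by 3.97 and 3.09. Il10, an inhibitory cytokine, read 7.73, 7.79 and 6.84 in resting Th2 WT cells and 9.55, 9.29 and 8.60 in BAF180-deficient cells, without overlap. That difference of 1.69 ± 0.56 came from the fit without blocks, had a limma adjusted p of 0.988 and was not called. In every pair of the same letter the BAF180-deficient array was the higher, and no blocked value is given for Il10. The paper reports Il10 as the gene most raised without BAF180 in resting and in stimulated Th2 cells. It also found more Il10 RNA by RT-PCR, more unspliced transcript and more IL-10-producing cells. Between genotypes limma called 0 of the 25 genes in every state, with 0, 3, 3 and 2 at an unadjusted p under 0.05, beside 6.83%, 2.25%, 3.43% and 2.79% of all probes, and medians were 0.11, 0.13, 0.09 and 0.08 beside 0.00 over all probes.

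Regulators and partners of Foxp3 were taken as a second list, of which 29 of 35 passed the filter, 5 were not detected and Stub1 had no probe. The shares of all probes called are those given for the first list. On stimulation of Naïve cells 7 rose and 7 fell in WT cells (median -0.24 beside 0.01), and 6 rose and 8 fell in BAF180-deficient cells (-0.24 beside 0.02). On stimulation of Th2 cells 6 rose and 9 fell in WT cells and 7 rose and 5 fell in BAF180-deficient cells. From resting Naïve to resting Th2 cells 6 rose and 8 fell (-0.20 beside 0.03) and 5 rose and 9 fell (-0.22 beside 0.03). The list moved in both directions at once.

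On stimulation of Naïve cells the largest rises of the list in WT cells were those of Uhrf1, Ezh2 and Dnmt1. In WT and BAF180-deficient cells Uhrf1 rose by 2.85 and 2.49, Ezh2 by 2.11 and 2.10 and Dnmt1 by 1.70 and 1.38. The transcription factors Ets1 (-2.63 and -2.32), Tcf7 (-1.76 and -2.03), Lef1 (-1.30 and -1.16) and Foxp1 (-1.06 and -1.24) lay on the falling side. Between resting Naïve and resting Th2 cells Foxp1 fell by 2.14 and fell by 2.40, and Bach2 fell by 1.67 and fell by 1.88. Stat5a, which carries the IL-2 signal to Foxp3, rose by 3.01 and 2.70 on stimulation of Th2 cells, and Nr4a3 by 2.88 and 2.54. Between genotypes limma called 0 of the 29 in every state, with 1, 1, 1 and 2 at an unadjusted p under 0.05, beside 6.83%, 2.25%, 3.43% and 2.79% of all probes.

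Integrin partners and ligands of the members were the last such list, with 7 of 12 kept, 4 not detected and Itgal without a probe, beside the same shares of all probes. On stimulation of Naïve cells 1 rose and 2 fell in WT cells, and 1 rose and 3 fell in BAF180-deficient cells. Itgb7, the β7 chain that pairs with the Itgae product, fell by 2.93 and fell by 2.88 (limma adjusted p 7.02e-11 and 9.93e-11). Sema4a, of the semaphorin family, fell by 2.61 and fell by 2.22, and Vegfa, a ligand of neuropilin 1, rose by 2.24 and 1.49. On stimulation of Th2 cells 1 rose and 2 fell in each genotype, and from resting Naïve to resting Th2 cells 1 rose and 1 fell in WT cells and 1 rose and 2 fell in BAF180-deficient cells. Between genotypes limma called 0 of the 7 in every state, with 2, 0, 0 and 0 at an unadjusted p under 0.05, beside 6.83%, 2.25%, 3.43% and 2.79% of all probes.

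Markers of other cells were read beside the members, since resting Naïve arrays stood apart in them too. The summed signal of 10 B cell markers, led in these arrays by H2-Ab1, was 18866, 15326 and 18884 in resting Naïve WT arrays and 16233, 23703 and 19079 in BAF180-deficient arrays, against 680 to 2584 in the other 18 arrays. Ms4a1 was detected on 1 array. Of the 10 genes 7 were lower on stimulation of Naïve cells in each genotype, and 7 and 8 were lower in resting Th2 than in resting Naïve WT and BAF180-deficient cells. Of all probes 20% and 19.3% were lower in the first comparison and 16% and 15.9% in the second, here and for the lists below. A gene kept only through resting Naïve arrays, as Ms4a1 was, had to be lower elsewhere. The counts of lower genes in these lists are therefore a description and not evidence.

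The 9 detected of 10 myeloid markers, led in resting Naïve arrays by Lyz1, summed to 3399, 3844 and 12522 in resting Naïve WT arrays and 4396, 5963 and 6797 in BAF180-deficient arrays, against 33.8 to 133 elsewhere, and Itgam was detected on none. All 9 were lower on stimulation of Naïve cells and in resting Th2 cells, in both genotypes. Of these, Lyz2, Cd14, Tyrobp and S100a9 were detected on the 6 resting Naïve arrays alone, so the detection filter fixed their direction. WT array C, which had the highest myeloid sum, also had the highest Gpr83 signal (9.29) and the highest Klrg1 signal of its group (7.10). The part of B cells and of myeloid cells in the members' levels was not tested.

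For NK and killer cells, which carry Klrg1, 6 of 8 markers were kept, led by Nkg7 (by Prf1 in resting Th2 cells), and summed to 704, 1040 and 932 in resting Naïve WT arrays and 1019, 964 and 1043 in BAF180-deficient arrays, against 175 to 853 elsewhere. Of the 6, 3 were lower on stimulation of Naïve WT cells and 2 on that of BAF180-deficient cells, and 3 and 4 were lower in resting Th2 than in resting Naïve cells of these genotypes. Ncr1 and Gzma were detected on none, and Klrb1c and Klrk1 on 1 array each. Klrd1 read 7.01, 7.29 and 8.10 in resting Naïve WT cells and 6.20, 7.0 and 7.57 in BAF180-deficient cells, a difference of -0.54 (limma adjusted p 0.877), while Nkg7 differed by 0.45 (0.996) and the mean sums were 892 and 1008. The NK markers had no gene called between genotypes by limma, with 0 at an unadjusted p under 0.05 in every state, and their part in the Klrg1 signal was not tested.

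The 10 memory T cell markers, led in resting Naïve arrays by Ccl5, summed to 1084, 1695 and 1132 in resting Naïve WT arrays and 1631, 1811 and 1451 in BAF180-deficient arrays, with 1 gene called higher there, S100a6, against 0.681% of all probes. By limma 3, 1, 2 and 3 of the 10 were at an unadjusted p under 0.05 in the 4 states, beside 6.83%, 2.25%, 3.43% and 2.79% of all probes, and those in resting Naïve cells were Ccl5 (0.99, adjusted p 0.664), Ly6c1 (-1.51, 0.704) and S100a6 (1.09, 0.263). The naive list had 1 gene lower in the same cells, Dapl1, and these 4 genes are named after their values were seen. The summed CD8 signal, from Cd8b1 alone, was 285, 346 and 485 in resting Naïve WT arrays against 268, 273 and 474. In the stimulated Naïve and both Th2 states, resting first, Cd8b1 differed between genotypes by -0.79, -0.95 and -0.70, and limma called 0 of these, with 1, in resting Th2 cells, at an unadjusted p under 0.05. The 4 detected of 8 dendritic cell markers, led by Cst3, summed to 1195, 1468 and 1048 against 1008, 1267 and 1226. Itgax, Flt3, Xcr1 and Clec9a were detected on none, and the CD4 T cell list summed to 11499, 12868 and 12282 against 12278, 10782 and 11840. Its mean sum went from 12216 to 6512 on stimulation of Naïve WT cells and from 11633 to 6667 on that of BAF180-deficient cells, with 4 and 3 of the 7 genes called lower. In the same comparison 5 and 6 of the 10 memory markers were lower and 2 were higher in each genotype, and from resting Naïve to resting Th2 cells 2 were lower in each and 3 and 1 higher. In the B cell, myeloid, dendritic, CD8, CD4 and Th2 lists limma called 0 genes between genotypes in every state, with no more than 1 gene of a list at an unadjusted p under 0.05. The part of these cells in the genotype differences was not tested.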

How the data were processed

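The values were the bead intensity of each probe as deposited, which the authors took from GenomeStudio (1.6.0 in the submitters' processing notes, another version in the paper) without normalisation between arrays, and the detection p-value deposited beside it. The Z-score normalisation of the paper is not in these values. The members and lists were chosen with earlier results of these data known.

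All 25697 probes were background corrected, quantile normalised and put on the log2 scale with limma 3.58.1 in R 4.3.3 (neqc, offset 16). A probe stayed in if its detection p was 0.02 or lower on 1 or more arrays, which left 14246 probes, fitted with 8 group means (lmFit and eBayes, 16 residual and 20.3 total degrees of freedom). P-values were Benjamini-Hochberg adjusted over all kept probes. Genotype differences were called by a Z-ratio beyond 1.5, an FDR under 0.3, a p under 0.05 and a positive mean signal, all from this fit. State differences and interactions were called at an adjusted p under 0.05. The brightest probe over 24 arrays stood for a gene. Summed signals add, over a list's genes, the brightest probe's unlogged signal less the offset. After the data were seen, 2 listed marker genes were left out of the sums and counts, for a reason unrelated to their values.

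All members were named. For the other lists the rule was up to 4 called genes per direction and comparison, largest difference first, and the text names only some of those it gave. Probes took current symbols by Entrez number (16938), RefSeq number (7418), symbol (467) or synonym (553), and 321 kept the table's name. Same-letter WT and BAF180-deficient arrays deviated together over the 4 states (r 0.301, 0.136 and 0.516 for A, B and C). The letters were read as pairs on these values. Of 12 single-state values 2 were at or below 0.1, B in resting Naïve cells (-0.0026) and A in resting Th2 cells (0.047). The blocks within each state gained their member calls in those 2 states. The paper speaks of pairs of mice but does not tie them to the letters. Alternatives changed the background correction, scaling, detection filter, call rule, arrays fitted, replicate block, probe choice and single arrays. The fit was also run on simulated data, of which no outcome is given here.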

Additional observations from a re-analysis of the deposited data

How the results depend on the processing

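The replicate block over all arrays called 1 member between genotypes in resting Naïve cells, as the fit without it did, and changed no other member's call. The paired blocks within each state, and the counting of the synonym probe, were chosen after seeing the data. Those blocks called 5 members in resting Naïve cells and 1 in resting Th2 cells. The shares of all probes called under the other alternatives are not given here. The counts below therefore describe the members and are no result about them. The resting Naïve count was 0 without background correction, under Z-score normalisation, under median centring, without the detection filter, at an adjusted p under 0.05 and with only the arrays compared in the fit. Leaving out single arrays gave 0 to 3, with 3 without WT C (Itgae, Izumo1r and Klrg1) and 0 without WT A, WT B, BAF180-deficient A or BAF180-deficient C. In resting Th2 cells median centring called 1, Foxp3, and leaving out arrays 0 to 0, as in stimulated Naïve (0 to 0) and stimulated Th2 cells (0 to 0). By the 4 criteria Naïve stimulation called 4 members in WT cells, and leaving out arrays gave 6 to 7 there and 6 to 6 in BAF180-deficient cells. Th2 stimulation in WT cells called 2 under Z-score normalisation, median centring, detection on all arrays of a group (each with Izumo1r) and with the synonym probe counted, and 1 to 2 with arrays left out (Izumo1r added without stimulated WT A or resting WT B, Nrp1 without stimulated WT B). By the 4 criteria it called Nrp1 in place of Ikzf2, and here as without stimulated WT B only the dimmer Nrp1 probe was called. In BAF180-deficient cells Th2 stimulation called 1 under Z-score normalisation and 1 by the 4 criteria, and 1 to 2 with arrays left out (1 without resting A). Th2 differentiation called 7 to 7 in both genotypes, and the interaction tests 0 to 0. Of the alternatives for 44 member differences, 668 kept their sign and side of the threshold, 13 newly passed it, 25 no longer passed it and 6 reversed. Gpr83 on Naïve stimulation of BAF180-deficient cells reversed to 0.036 under median centring. Izumo1r there reversed to -0.78 as the mean over probes, -0.032 without resting B and -0.12 without stimulated A, with a range of -0.12 to 0.34 over arrays left out. On Th2 stimulation of BAF180-deficient cells Izumo1r reversed to -0.20 as the mean over probes and Nrp1 to -0.30 without stimulated A (range -0.30 to 0.68). Median centring moved the median over all probes by -0.18 and -0.19 for Naïve stimulation, -0.20 and -0.20 for Th2 differentiation and 0.21 for Th2 stimulation of BAF180-deficient cells. The cause of these changes was not tested. Klrg1 and the Foxp3 probe at base 1348 lay near background in most Th2 arrays, where a difference could not be resolved. Itgae lay near background in several of them.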
